A study of Mus musculus with 5 samples.

Results

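Wide H3K4me1 regions were taken as the calls in the deposited H3K4me1 list that spanned 5000 bp or more and shared 0 bp with any H3K27me3 region. The members were thus selected on their H3K4me1 length and on the H3K27me3 calls, and were 1732 of 100189 H3K4me1 regions. The lists came from mouse hematopoietic progenitor cells, obtained by depleting C57B6 bone marrow of lineage-positive cells and transducing it with the retroviral vectors MIGR1-HA-Hoxa9 and MIGR1-Flag-Meis1, and grown with IL3. Chromatin immunoprecipitation and sequencing (ChIP-seq) was done once for each of HA-tagged Hoxa9, C/EBPα, H3K4me1 and H3K27me3, and an input library was not used here. All libraries carried both transgenes, so there was no untransduced group, and the anti-HA antibody reads the introduced Hoxa9 and not the endogenous protein. The lists hold genome positions without gene names, so the labelled cell type was not checked against marker genes. With 1 library per target there was no replicate error and no test between conditions; intervals below are exact 95% intervals that cover counting error only, and neighbouring regions are not independent.

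H3K4me1, monomethylation of lysine 4 on histone H3, is laid down by the MLL3 and MLL4 methyltransferases and marks enhancers, whether active or poised, and the flanks of promoters. In myeloid progenitors, lineage factors such as C/EBPα bind within such chromatin. C/EBPα is a leucine zipper factor required for granulocyte development, and Hoxa9 is a homeodomain factor that maintains progenitors and, with its cofactor Meis1, transforms them. H3K27me3 is the repressive mark of Polycomb group proteins. A summit is the base at which the caller placed the top of a peak, and a factor was counted in a region if its summit lay inside.

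The wide regions were few but held much of the mark. They made up 1.73% of the H3K4me1 regions, 10.4% of the sequence covered by them and 14.3% of the tags in them, over 12.4 Mb. Their median length was 6364.5 bp, with a 10th percentile of 5176.2 bp and a 90th of 9950.2 bp. Of the 1732, 702 were under 6 kb, 171 were 10 kb or longer, 36 were 15 kb or longer and 8 reached 20 kb. These lengths describe the rule and are not a finding. The comparison group was the 33769 regions of 1 to under 5 kb that also shared 0 bp with H3K27me3, called mid-length regions here, with a median length of 1650 bp over 65.5 Mb.

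Tag density came from the library that chose the regions and is described without a test. It had a median of 0.0699 tags per bp in wide regions (10th to 90th percentile 0.0594 to 0.0838) and 0.0518 in mid-length regions (0.0415 to 0.0671). Fold enrichment, the authors' linear ratio over background, had a median of 9.66 in wide regions and 6.37 in mid-length regions. The p score was 3100 or more in 65.1% of wide regions and 0.817% of mid-length regions. The deposited score was exactly 3100 in 1048 wide regions, so it does not rank them. Wide regions held between 259 and 2202 tags each, with a median of 448, and mid-length regions had a median of 86. Among the wide regions, density was weakly related to length (Spearman's rho = 0.294 across 1732 regions of 1 library, given as a description).

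**Figure D1:**
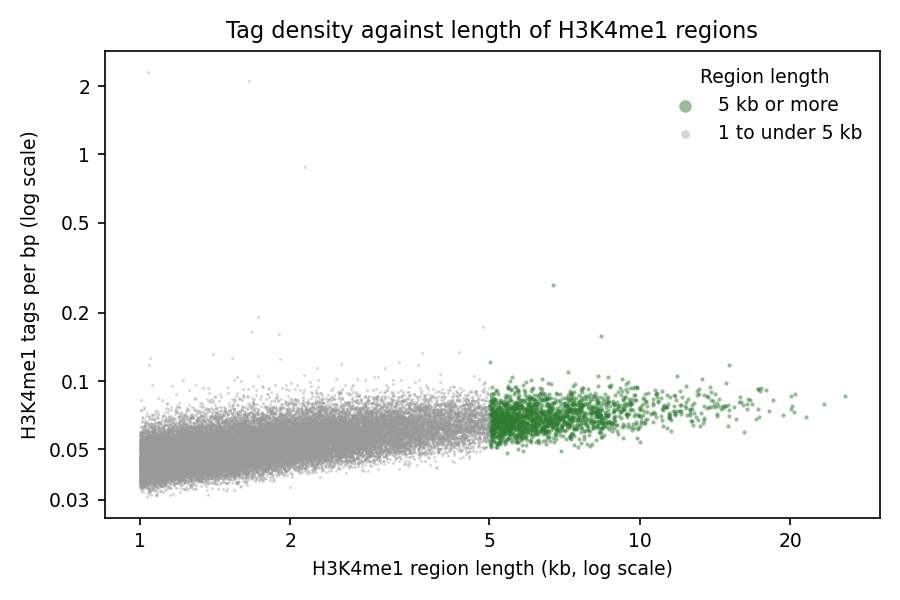
H3K4me1 tag density in tags per bp (log scale) against region length in kb (log scale) for wide regions (green) and mid-length regions (grey), 1 point per region. Wide regions lie in the upper part of the band, with medians of 0.0699 tags per bp in wide and 0.0518 in mid-length regions, and few points in either group stand above 0.1.

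Regions on both sides of the 5000 bp limit had similar tag densities. The 3 shortest members, chr1:75183162-75188161, chr4:115495470-115500470 and chr1:87855203-87860204 (mm9), were 5000, 5001 and 5002 bp long with 0.0774, 0.0634 and 0.0632 tags per bp. The 3 longest regions that fell short of it, chr11:106475181-106480179, chr2:166532774-166537770 and chr9:21118963-21123959, were 4999, 4997 and 4997 bp long with 0.0576, 0.0734 and 0.0640 tags per bp. The 3 members held 1, 1 and 2 C/EBPα summits, and the 3 others held 0, 2 and 1. None of these 6 held a Hoxa9 summit. The 415 members of under 5500 bp had a median of 0.0666 tags per bp, and the 603 regions of 4500 to under 5000 bp had 0.0659. Per kb, the members of under 5500 bp held 0.0520 Hoxa9 and 0.174 C/EBPα summits, and the regions of 4500 to under 5000 bp held 0.0635 Hoxa9 and 0.173 C/EBPα summits.

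Most wide regions held at least 1 factor. A C/EBPα summit lay in 1276 of the 1732 (73.7%, interval 71.5 to 75.7), and a Hoxa9 summit in 549 (31.7%, 29.5 to 33.9). Over all 100189 H3K4me1 regions of any length the shares were 15.1% for C/EBPα and 4.32% for Hoxa9. In mid-length regions C/EBPα was found in 29.8% (29.3 to 30.3) and Hoxa9 in 8.95% (8.64 to 9.26). A longer region has more room for a summit, so these shares do not by themselves compare occupancy.

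Both factors together were found in 490 wide regions, exactly 1 in 845 and neither in 397. As shares, 28.3% of wide regions (26.2 to 30.5) held both, 48.8% (46.4 to 51.2) exactly 1 and 22.9% (20.96 to 24.97) neither. In mid-length regions 5.71% (5.46 to 5.96) held both, 27.3% (26.9 to 27.8) exactly 1 and 66.9% (66.4 to 67.5) neither. Over all H3K4me1 regions the shares were 2.75%, 13.9% and 83.3%. The regions with 1 factor were mostly C/EBPα regions. C/EBPα was the lone factor in 786 wide regions (45.4%) and Hoxa9 in 59 (3.41%, 2.60 to 4.37), while in mid-length regions Hoxa9 was alone in 3.24% (3.05 to 3.43).

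These shares moved step by step with length and showed no break at 5 kb. Regions with neither factor were 76.1% of those of 1 to 2 kb, 43.5% at 3 to 4 kb, 33.7% at 4 to 5 kb, 27.5% at 5 to 6 kb, 16.6% at 8 to 10 kb and 8.77% (4.99 to 14.1) at 10 kb or more. Regions with both were 2.82%, 13.5%, 19.0%, 21.9%, 36.5% and 42.7% (35.2 to 50.5) in the same bins. The share with Hoxa9 alone stayed between 2.34% and 5.12% in every bin from 1 kb up.

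**Figure D2:**
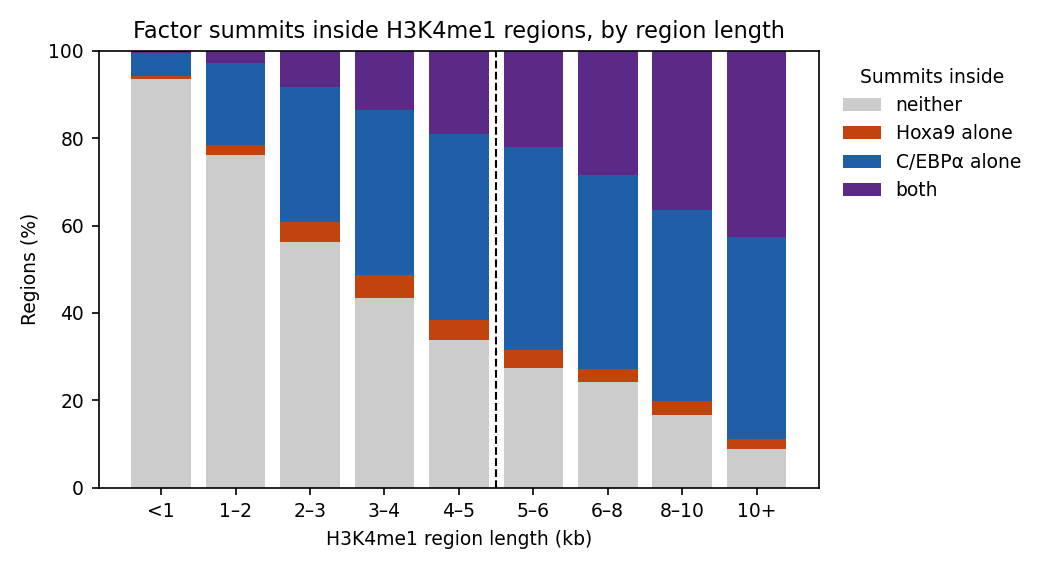
Share of H3K4me1 regions without H3K27me3 (%) that held summits of neither factor, Hoxa9 alone, C/EBPα alone or both, by region length in kb. The dashed line marks 5 kb. The share with both grows from 2.82% at 1 to 2 kb to 42.7% at 10 kb or more, and the share with neither shrinks from 76.1% to 8.77%.

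Several summits in 1 region were more common for C/EBPα, which had the larger list, than for Hoxa9. C/EBPα had 2 or more summits in 552 wide regions (31.9%) and 673 mid-length regions (1.99%). Hoxa9 had 2 or more in 96 wide regions (5.54%) and 77 mid-length regions (0.228%). Neither the size of the lists nor the greater room in longer regions was allowed for in these shares. The most in a wide region was 6 for C/EBPα, seen once, and 4 for Hoxa9, also seen once. Neighbouring C/EBPα summits in a wide region lay a median of 2410.5 bp apart over 720 pairs, and neighbouring Hoxa9 summits 2715 bp apart over 106 pairs.

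Per kb, wide regions were occupied about as densely as mid-length ones. Hoxa9 had 655 summits in wide regions, or 0.0528 per kb (0.0488 to 0.0570), and 3098 in mid-length regions, or 0.0473 per kb (0.0457 to 0.0490). The ratio of wide to mid-length was 1.12 (1.02 to 1.21). C/EBPα had 1996 summits in wide regions, or 0.161 per kb (0.154 to 0.168), and 10773 in mid-length regions, or 0.164 per kb (0.161 to 0.168), with a ratio of 0.978 (0.932 to 1.03). The 57824 regions under 1 kb without H3K27me3 were less densely occupied. They had 0.0180 Hoxa9 (0.0166 to 0.0195) and 0.0982 C/EBPα summits per kb (0.0949 to 0.102). Of the summits inside H3K4me1 regions of any length, wide regions held 14.5% for Hoxa9 and 12.02% for C/EBPα, beside their 10.4% of the covered sequence. Of all called summits, inside or outside H3K4me1 regions, they held 9.96% for Hoxa9 and 7.55% for C/EBPα.

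The Hoxa9 ratio rested on the shortest mid-length regions. Hoxa9 had 0.0377 summits per kb at 1 to 2 kb, 0.0547 at 2 to 3 kb, 0.0563 at 3 to 4 kb, 0.0579 at 4 to 5 kb, 0.0550 at 5 to 6 kb, 0.0540 at 6 to 8 kb, 0.0543 at 8 to 10 kb and 0.0453 (0.0369 to 0.0550) at 10 kb or more. From 2 kb up, neighbouring bins did not differ beyond their intervals. With mid-length regions limited to 2 to under 5 kb, a setting chosen after seeing the data, the ratio turned to 0.947 (0.865 to 1.04). C/EBPα had 0.156 per kb at 1 to 2 kb, between 0.171 and 0.174 in the 3 bins from 2 to 5 kb, 0.170 at 5 to 6 kb, 0.165 at 6 to 8 kb, 0.162 at 8 to 10 kb and 0.136 (0.122 to 0.152) at 10 kb or more. Against 2 to under 5 kb its ratio was 0.934 (0.887 to 0.982). The 171 longest regions thus had the lowest C/EBPα density of the bins from 1 kb up, with an interval that overlapped those of 8 to 10 kb and 1 to 2 kb.

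**Figure D3:**
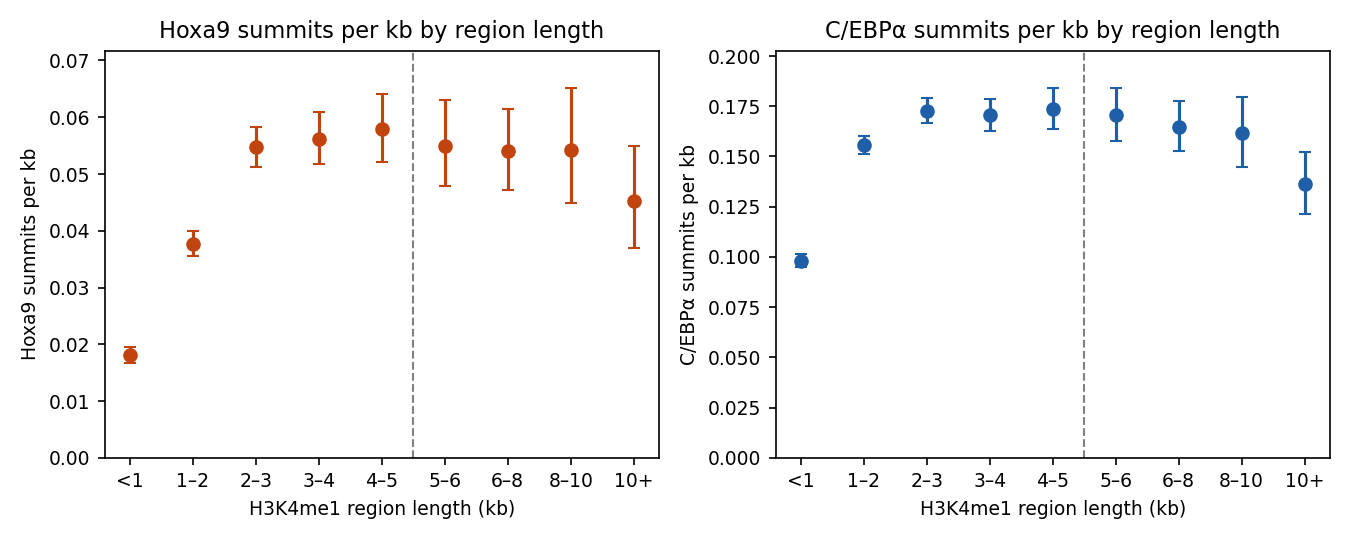
Hoxa9 (left) and C/EBPα (right) summits per kb of H3K4me1 region without H3K27me3, by region length in kb, with exact 95% Poisson intervals. The dashed line marks 5 kb. Both factors climb up to 2 to 3 kb. Hoxa9 then runs level within its intervals, while C/EBPα goes from 0.174 per kb at 4 to 5 kb down to 0.136 in regions of 10 kb or more.

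Windows of 1 kb gave every piece the same room for a summit. They were tiled from the start of each region, and a remainder under 1 kb at its end was left out. Of 11646 such windows in wide regions, 5.40% held a Hoxa9 summit (4.997 to 5.83), 16.5% a C/EBPα summit (15.9 to 17.2) and 3.24% both (2.92 to 3.57). Of 51640 windows in mid-length regions, 4.996% held Hoxa9 (4.81 to 5.19), 17.6% C/EBPα (17.3 to 17.9) and 2.75% both (2.61 to 2.90). Wide windows thus held C/EBPα less often and both factors more often than mid-length windows, beyond the intervals, while those for Hoxa9 overlapped. The remainders were a larger part of the mid-length sequence (51640 windows in 65500.5 kb) than of the wide (11646 in 12409.9 kb). This was not corrected for. Over all bases, the C/EBPα ratio of wide to mid-length was 0.978 (0.932 to 1.03), an interval that held 1. In the 29802 windows of regions of 2 to under 5 kb the shares were 5.95%, 18.5% and 3.42%.

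The chromosomes scattered around these values. Over the 19 autosomes, Hoxa9 had 0.0538 ± 0.0128 summits per kb in wide regions and 0.0485 ± 0.00838 in mid-length regions (mean ± SD over chromosomes), and wide regions were higher on 11 of 19. The difference, wide minus mid-length, averaged 0.00525 with an SD of 0.0130 over chromosomes. C/EBPα had 0.162 ± 0.0159 per kb in wide regions and 0.167 ± 0.0146 in mid-length regions, and wide regions were higher on 5 of 19. Its difference averaged -0.00489 with an SD of 0.0162. Single chromosomes went either way for both factors. Hoxa9 density in wide regions was highest on chromosome 13, at 0.0817 per kb, and lowest on chromosome 14, at 0.0324, while mid-length regions of these chromosomes had 0.0582 and 0.0548. The share of wide regions with neither factor ran from 9.68% on chromosome 13 to 35.8% on chromosome 19.

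**Figure D4:**
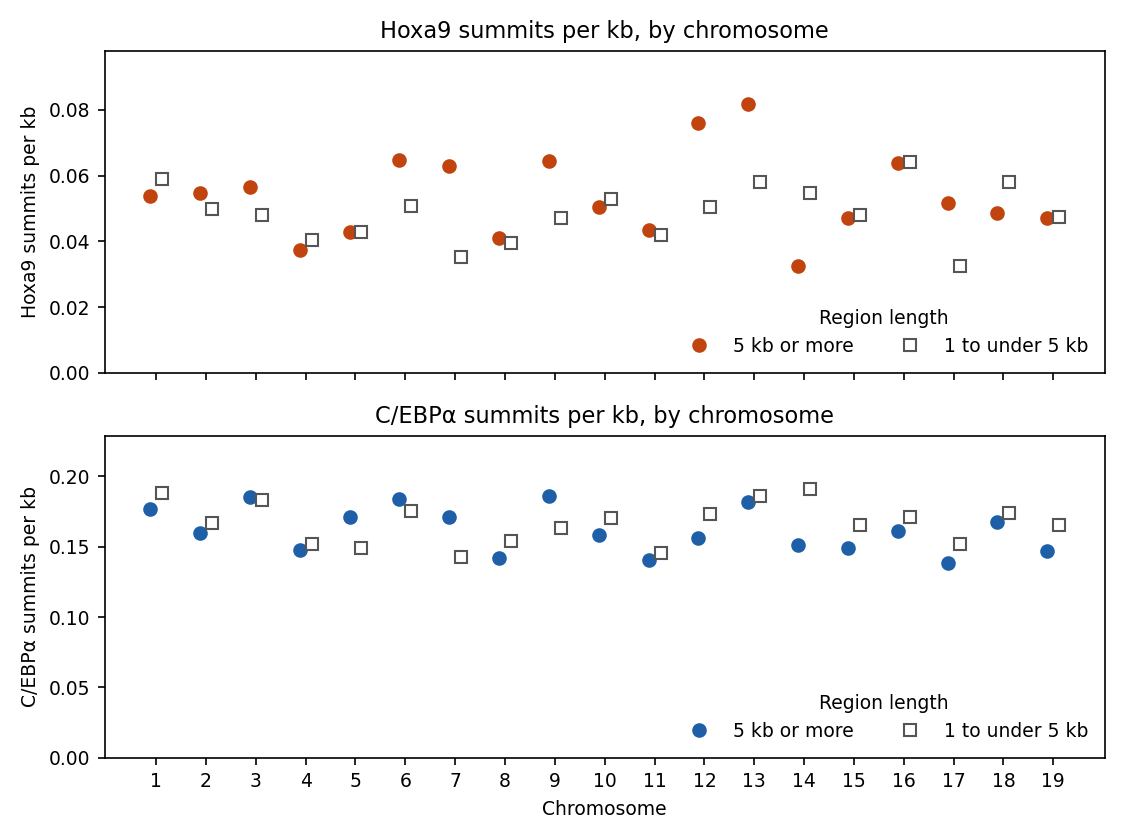
Hoxa9 (top) and C/EBPα (bottom) summits per kb in wide regions (filled circles) and mid-length regions (open squares) on each of the 19 autosomes. Neither group is above the other throughout: wide regions are higher on 11 of 19 chromosomes for Hoxa9 and 5 of 19 for C/EBPα.

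Factor density was also set against tag density, since wide regions carried more tags per bp. The wide regions were divided into 3 classes of 577 or 578 at 0.0658 and 0.0743 tags per bp, and mid-length regions were divided at the same limits. In the low class Hoxa9 had 0.0598 summits per kb in wide regions (0.0522 to 0.0683) and 0.0461 in mid-length regions (0.0443 to 0.0479). In the middle class it had 0.0536 in wide and 0.0524 in mid-length regions, and in the high class 0.0465 (0.0405 to 0.0531) in wide and 0.0542 (0.0470 to 0.0622) in mid-length regions. C/EBPα had 0.153, 0.165 and 0.163 per kb in wide regions and 0.161, 0.178 and 0.183 in mid-length regions, from the low to the high class. For C/EBPα the wide value was below the mid-length value in all 3 classes, and the intervals overlapped in each. The only class whose intervals did not overlap was the low one for Hoxa9, where mid-length regions had a median length of 1564.5 bp. Across the wide regions, the number of Hoxa9 summits did not follow tag density (Spearman's rho = 0.00078) and that of C/EBPα followed it weakly (rho = 0.145), both over 1732 regions as a description. These numbers were not divided by region length, which itself weakly followed tag density (rho = 0.294). Per kb, Hoxa9 in wide regions went from 0.0598 in the low to 0.0465 in the high class, with overlapping intervals.

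Factor peaks inside wide regions were about as strong as those in mid-length regions. The median fold enrichment of Hoxa9 peaks was 6.43 in wide and 6.365 in mid-length regions, and that of C/EBPα peaks 9.15 in wide and 8.71 in mid-length regions. A larger part of the Hoxa9 peaks were strong: 153 of 655 in wide regions (23.4%) and 541 of 3098 in mid-length regions (17.5%) had a fold enrichment of 10 or more. Those peaks had 0.0123 summits per kb in wide regions (0.0105 to 0.0144) and 0.00826 in mid-length regions (0.00758 to 0.00899), a ratio of 1.49 (1.24 to 1.79). Against regions of 2 to under 5 kb, with 0.0108 per kb, the ratio was 1.15 (0.944 to 1.39). For C/EBPα peaks of that strength the density was 0.0737 per kb in wide and 0.0704 in mid-length regions, a ratio of 1.05 (0.975 to 1.12), and against regions of 2 to under 5 kb the ratio was 0.946 (0.877 to 1.02).

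Hoxa9 peaks more often overlapped a C/EBPα peak in wide than in mid-length regions. A C/EBPα peak shared at least 1 bp with 472 of 655 Hoxa9 peaks in wide regions (72.1%, 68.5 to 75.5) and with 1985 of 3098 in mid-length regions (64.1%, 62.4 to 65.8). Conversely, 23.9% of C/EBPα peaks in wide regions (22.0 to 25.8) and 18.6% in mid-length regions (17.9 to 19.4) shared sequence with a Hoxa9 peak. Wide regions with a Hoxa9 summit held C/EBPα in 89.3% of cases (86.4 to 91.7), and wide regions without one in 66.4% (63.7 to 69.1). The 549 with Hoxa9 were somewhat longer, with a median of 6662 bp, than the 1183 without, at 6194 bp, and the part of length in this difference was not tested. Their C/EBPα density was 0.2003 per kb with Hoxa9 and 0.141 without. In mid-length regions it was 0.286 per kb with Hoxa9 and 0.148 without. Of 3021 mid-length regions with a Hoxa9 summit, 1927 held C/EBPα (63.8%), and of 1876 such regions of 2 to under 5 kb, 1311 did. Longer regions have more room for a C/EBPα summit, which these shares do not allow for. Among 1 kb windows with Hoxa9, C/EBPα was also present in 377 of 629 in wide regions. It was present in 1421 of 2580 such windows in mid-length regions and 1018 of 1774 in regions of 2 to under 5 kb. The overlap of peaks was not counted for regions of 2 to under 5 kb.

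Sharing a wide region did not always mean sharing a site. In the 490 wide regions with both factors, the closest Hoxa9 and C/EBPα summits lay a median of 93.5 bp apart, and in 339 (69.2%, 64.9 to 73.2) they were within 200 bp. In 72 of them the closest pair was over 1 kb apart, in 26 over 3 kb, and in 1 it was 16061 bp. In the 1927 mid-length regions with both, the median was 74 bp, 78.9% (77.0 to 80.7) had a pair within 200 bp, and 93 had none within 1 kb. Longer regions leave more room for distant pairs. Counted per Hoxa9 summit, 56.0% in wide regions (52.1 to 59.9) and 49.5% in mid-length regions (47.7 to 51.2) had a C/EBPα summit of the same region within 200 bp. Partners across an edge were not counted. Within 250 bp of an edge lay 42 of 655 Hoxa9 summits in wide and 609 of 3098 in mid-length regions, so the mid-length share can miss more of them.

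Inside the wide regions, summits were spread over a broad middle and thinned out towards both ends. The middle 50% of the length held 63.4% of Hoxa9 summits (59.5 to 67.1) and 59.0% of C/EBPα summits (56.8 to 61.2), where an even spread would give 50%. In mid-length regions the middle 50% held 66.7% of Hoxa9 (65.0 to 68.3) and 68.9% of C/EBPα summits (68.0 to 69.7). In regions of 2 to under 5 kb it held 72.3% of Hoxa9 (70.3 to 74.3) and 71.5% of C/EBPα summits (70.3 to 72.6). The wide share was thus lower beyond the intervals for C/EBPα against both groups, and for Hoxa9 against regions of 2 to under 5 kb. With each region cut into 10 equal steps, Hoxa9 shares in wide regions lay between 11.3% and 13.6% in steps 3 to 8, and were 5.80% in the first and 5.34% in the last. C/EBPα shares lay between 10.5% and 13.1% in the same 6 steps, and were 5.06% in the first and 5.21% in the last. In mid-length regions step 5 alone held 16.9% of Hoxa9 and 16.5% of C/EBPα summits. Neither end was favoured: 50.7% of Hoxa9 (46.8 to 54.6) and 50.7% of C/EBPα summits (48.4 to 52.9) of wide regions lay on the higher-coordinate side of the centre.

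Distance from the edge in bp showed a second feature, a rise at the edge itself. Hoxa9 had 0.0485 summits per kb in the outermost 250 bp of wide regions (0.0350 to 0.0656), 0.0208 from 250 to 500 bp (0.0123 to 0.0328), 0.0242 from 500 to 1000 bp (0.0175 to 0.0328) and 0.0537 from 1000 to 1500 bp (0.0433 to 0.0658). It reached 0.0659 (0.0579 to 0.0746) beyond 2500 bp. C/EBPα had 0.104 (0.0836 to 0.128), 0.0577 (0.0429 to 0.0761), 0.117 (0.101 to 0.134) and 0.175 (0.156 to 0.196) per kb in the same first 4 steps, and between 0.180 and 0.195 further in. For C/EBPα the dip from 250 to 500 bp lay below both of its neighbours beyond their intervals. For Hoxa9 it lay below the outermost 250 bp, and the next step was as low.

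The rise went on just outside. In sequence outside any H3K4me1 region, the first 250 bp beyond the edges of wide regions had 0.0471 Hoxa9 summits per kb (0.0325 to 0.0662) and 0.110 C/EBPα summits per kb (0.0868 to 0.137). Both fell away with distance, to 0.00932 Hoxa9 and 0.0233 C/EBPα summits per kb from 500 to 1000 bp. Flanks were cut at the next H3K4me1 region, so the far steps came only from edges without a close neighbour. The part of this in the fall was not tested. From 1000 to 2000 bp there were 0 Hoxa9 summits in 1292 kb, which allows up to 0.00232 per kb (3 counts), and 0.0209 C/EBPα summits per kb. Mid-length regions had the dip for Hoxa9, with 0.0361 summits per kb in their outermost 250 bp (0.0333 to 0.0391) and 0.0248 from 250 to 500 bp (0.0224 to 0.0272). As a whole they had none for C/EBPα, with 0.102 (0.0972 to 0.107) and 0.114 (0.109 to 0.119) in these steps. Those of 2 to under 5 kb had C/EBPα values of 0.0892 (0.0818 to 0.0971) and 0.0776 (0.0707 to 0.0850), with overlapping intervals. From 500 to 1000 bp they had 0.180 (0.173 to 0.188).

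At the same distance from an edge, the interior of wide regions was less densely bound than that of regions of 2 to under 5 kb. From 1000 to 1500 bp inside, Hoxa9 had 0.0537 summits per kb in wide and 0.0919 in the shorter regions. C/EBPα had 0.175 and 0.264 there. From 2000 to 2500 bp the Hoxa9 intervals overlapped. The next values pool all bases at 1000 bp or more from both edges, which reach further inside in wide regions. Hoxa9 had 0.0618 summits per kb in wide regions (0.0568 to 0.0672) and 0.0923 in regions of 2 to under 5 kb (0.0867 to 0.0982). C/EBPα had 0.185 per kb in wide regions (0.176 to 0.194) and 0.260 in regions of 2 to under 5 kb (0.251 to 0.270). The ratios were 0.670 (0.603 to 0.743) for Hoxa9 and 0.711 (0.669 to 0.756) for C/EBPα. In the shorter regions such bases lie near the centre, so this comparison also sets a whole interior against a centre. In the central 1 kb alone, Hoxa9 had 0.0756 summits per kb in wide regions (0.0632 to 0.0898) and 0.0909 in regions of 2 to under 5 kb (0.0855 to 0.0964), and C/EBPα had 0.193 in wide (0.173 to 0.215) and 0.271 in regions of 2 to under 5 kb (0.262 to 0.280). Here the Hoxa9 intervals overlapped and the C/EBPα intervals did not. The central 1 kb of mid-length regions had 0.0574 Hoxa9 summits per kb (0.0549 to 0.0601), below the wide value, and 0.211 C/EBPα summits per kb (0.206 to 0.216), with an interval that overlapped the wide one. The comparisons with regions of 2 to under 5 kb were chosen after seeing the data.

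**Figure D5:**
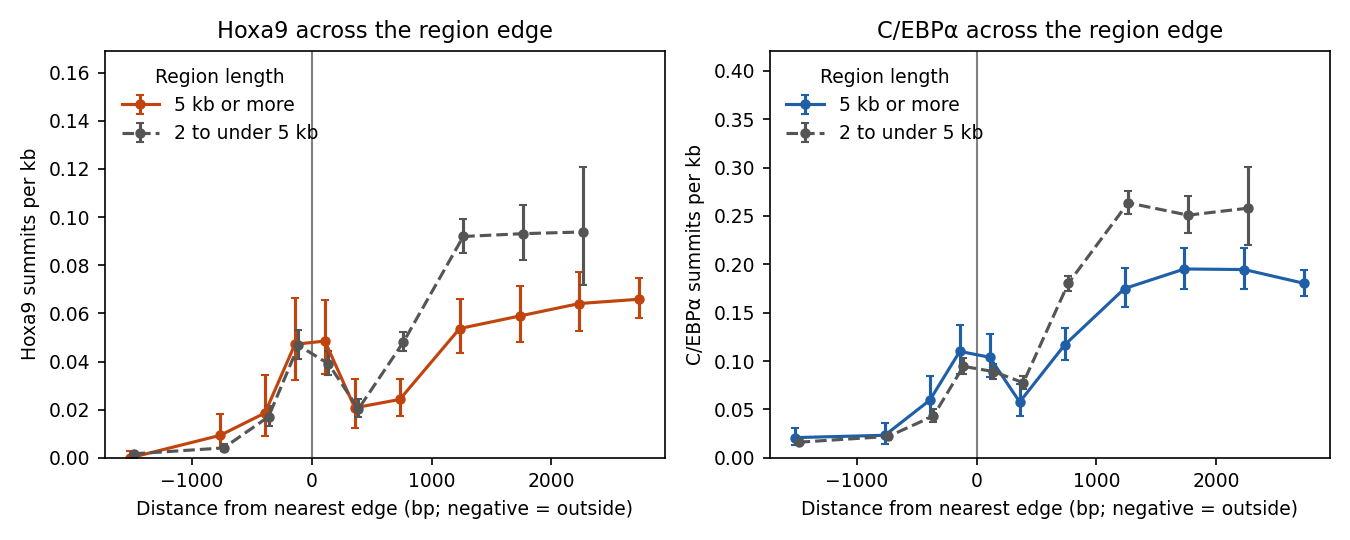
Hoxa9 (left) and C/EBPα (right) summits per kb against distance from the nearest region edge in bp, for wide regions (solid) and regions of 2 to under 5 kb (dashed), with exact 95% Poisson intervals. Negative distances are outside any H3K4me1 region, and the last point of the wide regions covers 2500 bp or more. Both groups have a local high at the edge and their lowest inside value at 250 to 500 bp, and from 500 bp inward the wide regions lie below the shorter ones.

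Few factor summits in wide regions lay close to the H3K4me1 summit of their region. The median distance between a factor summit and the H3K4me1 summit of its region was 1521 bp for Hoxa9 and 1520 bp for C/EBPα in wide regions, and 535.5 bp for Hoxa9 and 455 bp for C/EBPα in mid-length regions. Within 200 bp were 1.53% of Hoxa9 (0.734 to 2.79) and 3.06% of C/EBPα summits (2.35 to 3.91) in wide regions, and 12.9% of Hoxa9 and 19.8% of C/EBPα summits in mid-length regions. Longer regions leave more room for such distances too, and the shares that an even spread would give were not worked out. The H3K4me1 summit itself lay in the middle 50% of 63.8% of wide regions (61.5 to 66.1) and 75.04% of mid-length regions (74.6 to 75.5).

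Named regions show how far single members departed from these averages. The 10 widest members spanned 18.505 to 25.667 kb at 0.0692 to 0.0874 tags per bp. They held between 0.0499 and 0.216 factor summits per kb. In the widest, chr8:126774978-126800644, 1 Hoxa9 and the only C/EBPα summit lay 139 and 42 bp from the start, and the second Hoxa9 summit 20586 bp from it, so most of its length held no summit. In chr11:78884065-78904496, with 20.432 kb and no Hoxa9, 4 C/EBPα summits were spread over the length, at 875, 6077, 10556 and 16434 bp from the start, with fold enrichments of 4.04, 3.68, 15.7 and 21.82. In chr9:55940213-55958717, with 18.505 kb, 3 C/EBPα summits were joined by 1 Hoxa9 summit.

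The members with most summits were not the widest. Of the 12 members with 6 or more summits of both factors together, the 10 named, with ties broken by summits per kb, spanned 5.886 to 17.286 kb and held 28 Hoxa9 and 38 C/EBPα summits, at 0.405 to 1.19 per kb. The top count, 8, was at chr9:7565023-7574005, with 2 Hoxa9 and 6 C/EBPα summits in 8.983 kb. There a Hoxa9 summit at 2493 bp from the start, with a fold enrichment of 12.01, met a C/EBPα summit at 2499 bp with 36.05. The densest was chr13:97721761-97727646, with 4 Hoxa9 and 3 C/EBPα summits in 5.886 kb, or 1.19 per kb. Its Hoxa9 peaks were weak, with fold enrichments of 4.7 to 5.91, and 3 of the 4 held 17 tags each, the fewest in any called Hoxa9 peak.

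Some of these regions were rows of paired sites. At chr5:77810745-77818231 the Hoxa9 summits lay 2226, 3606 and 4659 bp from the start and the C/EBPα summits 2297, 3728 and 4641 bp from it. All 6 had a fold enrichment over 10. At chr15:59242300-59248362 the Hoxa9 summits lay at 923, 2715 and 6034 bp and the C/EBPα summits at 898, 2657 and 5927 bp, with fold enrichments of 26.71, 19.28 and 24.69 for C/EBPα and 6.86, 5.15 and 6.43 for Hoxa9. At chr6:38769311-38786596, with 17.286 kb, a pair at 2492 bp (Hoxa9) and 2443 bp (C/EBPα) stood beside Hoxa9 summits at 4766 and 8569 bp and C/EBPα summits at 6735, 9102 and 14572 bp. The other 5 of the 10 lay at chr9:71009750-71016086, chr9:72306250-72313901, chr16:95653308-95660952, chr16:93187904-93199616 and chr19:53960792-53970157, with 6 or 7 summits each.

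Some of the wide regions held no called summit. The 3 widest members with no summit of either, chr2:167763768-167778794, chr11:72287540-72301944 and chr18:35993737-36007779, spanned 15.027, 14.405 and 14.043 kb. They had 0.0783, 0.0838 and 0.0784 tags per bp and fold enrichments of 8.12, 10.53 and 13.33, within the range of the other wide regions. As a group, the 397 members with neither factor had a median length of 6049 bp and a median density of 0.0684 tags per bp. The 59 with Hoxa9 alone had 6091 bp and 0.0662, the 786 with C/EBPα alone 6362 bp and 0.0708, and the 490 with both 6761 bp and 0.0701.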

How the data were processed

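The submitters' processing notes name MACS 1.4, BWA 0.6.2, CASAVA 1.8.2 and build mm9. Caller settings and the control library were not stated in the sources used here. Peaks were called separately in 1 library for each of 4 targets. Per the file headers, the deposited tags are whole-number counts per peak, the p score is the −log10 p-value multiplied by 10, fold enrichment is a linear ratio and the false discovery rate is in percent. Sequencing depth is unknown here, so a site too weak to call is missing and "neither" means no called summit.

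Summit position was start plus summit offset minus 1. Rates, shares and ratios carry exact Poisson, Clopper-Pearson and conditional binomial 95% intervals (Python 3.11.15, scipy 1.17.1, numpy 2.4.6, pandas 2.3.3, matplotlib 3.10.9); the counting code was tested on simulated data. Members, comparisons and the rule for named regions (10 widest, 10 with most summits, 3 widest with neither factor, 3 at each end of tag density and 3 on each side of 5000 bp) were chosen with earlier results of these data known. Outside flanks between 2 regions of a group were counted for each. The reference at hand was of another build (GRCm38), so no sequence or gene is given, and the planned motif search was not run.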

Additional observations from a re-analysis of the deposited data

How the results depend on the processing

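Of 63 alternatives to 7 results, 44 stayed within the main interval (counts within 1.5 times), 17 left it and 2 turned a ratio whose interval lay clear of 1. Both concerned the Hoxa9 density ratio of wide to mid-length regions, 1.12, which became 0.947 against regions of 2 to under 5 kb and 0.670 at 1000 bp or more from both edges, where the C/EBPα ratio was 0.711; these settings were chosen after seeing the data. Counting factor peaks of fold enrichment of 10 or more gave ratios of 1.49 (Hoxa9) and 1.05 (C/EBPα), 54.5% of wide regions with neither and 6.06% with both, and 62.5% of C/EBPα summits in the middle 50%. A limit of 4000 bp gave 3188 regions, 27.9% with neither, 24.0% with both and 62.4% of C/EBPα summits in the middle 50%. Joining regions with gaps under 1000 bp gave 5260 wide regions, a C/EBPα ratio of 0.907 and 56.1% of C/EBPα summits in the middle 50%. The C/EBPα ratio, 0.978, had an interval that held 1, and it was above 1 at fold enrichment of 10 or more, at the 4000 bp limit (1.011) and without the H3K27me3 exclusion (1.004). Counting any shared bp gave 20.3% with neither and 31.2% with both. The middle 33.3% of the length held 44.3% of Hoxa9 and 39.2% of C/EBPα summits. These shares count among the 17 only because they were set against the interval of the middle 50%, a larger part. Leaving out regions with a false discovery rate over 5% or chromosome X removed no member, nor did leaving out regions of 0.5 or more tags per bp, so their outcome for members was fixed. All values of these settings are among the 44, so that count overstates how stable the results were. No paired analysis was possible because each target had 1 library and no result came from a test between groups. The number of wide regions depends on where the caller broke a region, and its dependence on sequencing depth was not tested.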

Other observations

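Wide regions stood in dense H3K4me1 neighbourhoods. The nearest other H3K4me1 region was a median of 224 bp away for wide regions and 456 bp for mid-length regions, and 78.9% of wide and 63.6% of mid-length regions had one within 1 kb. Another wide region lay within 10 kb of 29.6% of wide and 10.8% of mid-length regions. Wide regions were most frequent on chromosome 11, with 173 or 1.46 per Mb, against a mean of 0.732 ± 0.258 (SD over 19 autosomes). Chromosome X held 0 among its 1185 H3K4me1 regions, which allows a share of up to 0.253% (3 counts), and its longest region was 3530 bp.

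The rule left out 39 regions of 5 kb or more that met H3K27me3, 2.20% of those of that length. They held 0.118 C/EBPα summits per kb (0.0813 to 0.166) and 0.0393 Hoxa9 summits per kb (0.0196 to 0.0704), and 16 of the 39 held neither factor. Of these, 7 lay wholly inside a single H3K27me3 region, chr8:126061025-126151860, and held 0 summits of either factor in 74.4 kb. The other 32 held 0.161 C/EBPα (0.111 to 0.226) and 0.0536 Hoxa9 summits per kb (0.0268 to 0.0959), and 9 of them held neither. This split was chosen after seeing the data. Leaving out regions with 0 summits had to raise the densities, so no conclusion is drawn from it. The intervals of all 39 held the values of the wide regions, 0.161 for C/EBPα and 0.0528 for Hoxa9.

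In 13 members tag density was above 0.1 tags per bp. Their fold enrichment ran from 2.97 to 17.5, with 5 of them under 5, and together they held 5 Hoxa9 and 16 C/EBPα summits. The 3 with the highest tag density, chr17:3079028-3085721, chr6:47691501-47699876 and chr1:90168883-90173901, had 0.266, 0.158 and 0.122 tags per bp but fold enrichments of 2.97, 4.42 and 3.53, and held no factor summit. The 3 with the lowest density, chr18:50210029-50215455, chr16:93833575-93840537 and chr6:31105894-31111720, had 0.0481 to 0.0494 tags per bp with fold enrichments of 6.33, 7.84 and 6.27, and held 1 C/EBPα summit in all. Fold enrichment was under 5 in 13 of the 1732 members.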
